A study of Mus musculus with 30 samples.

Results

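The genes that make, move, break down and store haem and iron were followed in 30 fibres, each isolated singly from the mouse extensor digitorum longus, which is a fast muscle of the hindlimb. The set holds 10 of 23341 measured genes: Tmem14c, Flvcr1, Flvcr2, Hmox1, Hmox2, Alas1, Fech, Tfrc, Fth1 and Ftl1. All non-control array probes for these genes were taken, 15 probes in all. Flvcr1 and Flvcr2 are listed under the older names Mfsd7b and Mfsd7c and were found through their RefSeq accessions, and the other 8 genes by name. All 15 probes passed the filter on dim probes, and no probe was saturated on any array. Tmem14c, Flvcr2 and Hmox1 had been chosen because their levels in these arrays differed between groups, so their values are given as a description and carry no test. The other 7 genes had been chosen for their function, though with earlier results of these data known, and were tested.

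The study asked what raising or lowering MCU, the pore of the mitochondrial calcium uniporter, does to transcripts of adult muscle fibres. All fibres came from male CD1 mice, aged 8 weeks when muscles were injected. Wild type fibres had received no virus (4 fibres for day 7 and 4 for day 14). MCU vector fibres carried AAVMCU, an adeno-associated virus (AAV) that overexpresses MCU (3 fibres at day 7 and 4 at day 14). Silenced fibres carried AAVshMCU, a virus with a hairpin against MCU (3 fibres at day 7 and 4 at day 14). AAV control fibres (4 fibres at each day) carried AAVshLuc according to the sample titles, while other labels describe virus without an insert, and the sources used here do not settle which applies. Fibres from injected muscles were picked by green fluorescence of ZsGreen, and part of the RNA of each was spent on a quantitative PCR for MCU, by which fibres were selected. No label ties a fibre to an animal; fibres may share one, and the p-values speak only to fibre-to-fibre spread.

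Haem is built by a pathway that starts and ends in mitochondria. ALAS1 catalyses its first and rate-limiting step outside erythroid cells, TMEM14C carries porphyrin intermediates across the inner mitochondrial membrane, and FECH inserts iron into protoporphyrin as the last step. FLVCR1 exports haem, FLVCR2 is a related transporter of the same family, and the haem oxygenases HMOX1 (inducible) and HMOX2 (constitutive) open the haem ring and release its iron. Iron enters cells with transferrin through the receptor TFRC and is stored in ferritin, a shell of heavy (FTH1) and light (FTL1) chains. In muscle, haem is needed for myoglobin and for the cytochromes of respiration.

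Each level below is the log2 spot signal over the 75th percentile of its array, and each difference is that of 2 group means on this log2 scale. The array's 75th percentile signal ranged from 82.5 to 136, and the share of probes detected above background from 49.4% to 59.5%. Precision is limited by how many arrays there are. Mcu had a level of 2.16 to 3.04 in the wild type and AAV control fibres, 3.11 to 3.62 with the MCU vector at day 7, 5.88 to 6.68 at day 14, and -1.68 to 1.30 in silenced fibres, in the direction by which fibres had been selected. Treated fibres and their controls shared a slide, with treated fibres always in columns 1 and 2 and controls always in columns 3 and 4. Within a slide the column therefore cannot be told apart from the treatment. AAV control and wild type fibres, and fibres of different days, never shared a slide. In those comparisons the slide cannot be told apart from the group or day. Of 12 markers of muscle fibres 11 were above background on every array. The erythroid markers Ahsp, Klf1 and Rhag were detected on no array. The 12 erythroid markers, haemoglobin genes among them, summed to a level of 1.92 to 7.28 over all fibres, with the highest value in a silenced fibre of day 14. Of 16 macrophage and myeloid markers, 6 to 9 were detected on every array of a group; Mrc1 and C1qc were detected on no array, and Cd163 in no group but wild type at day 14. The 16 markers summed to a level of 7.90 to 8.49 over all fibres, and without Itgam, the brightest, to 4.67 to 5.07.

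The probes behind the members that differed most are shown by their central 30 bases (bases 16 to 45 of 60, as the files list them), with the position of those bases on build mm9; Hmox1 and Alas1 are shown with both of their probes because these did not give the same size of difference.
Tmem14c (chr13:41117599-41117628, plus strand): gataagtgcagcatatttacatagtgggac
Flvcr2 (chr12:87154353-87154382, plus strand): ggatggaagagatgccttactttctgtcaa
Hmox1, brighter probe (chr8:77620812-77620841, plus strand): cagaacccagtctatgccccactctacttc
Hmox1, other probe (chr8:77624222-77624251, plus strand): catgttgactgaccacgactgctgtccccc
Flvcr1 (chr1:192829846-192829875, minus strand): atatctttgaaaatgtttatgttagcaact
Ftl1 (chr7:52713324-52713353, minus strand): agtcttggaccaagtaaaaataaagctttt
Alas1, brighter probe (chr9:106136299-106136328, minus strand): acccacatagtagccagaattgtctttata
Alas1, other probe (chr9:106135811-106135840, minus strand): tccaccctctgcacttgtatttgggtcttg
The Hmox1 probes lie at bases 324 and 1290 of their transcript, the Alas1 probes at bases 2144 and 2632, the Flvcr1 probe at base 3907 and the Flvcr2 probe at base 3237. Random primers were used for labelling, which keeps no record of strand.

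Tmem14c, the porphyrin carrier of the mitochondrial inner membrane, lay on either side of a wide gap in the 30 fibres. The 3 silenced fibres of day 7 had levels of 2.57, 2.63 and 2.18, against -0.68, -0.56, -0.96 and -0.62 in the AAV control fibres on the same slide. At day 14 the silenced fibres were at -0.036, -0.66, -0.77 and -0.49 and the AAV control fibres at -0.87, -0.0014, -0.97 and -0.78. The high level was thus seen in silenced fibres at day 7 and not at day 14, with a difference from the AAV control of 3.17 (8.98-fold) at day 7 and 0.17 at day 14. The wild type fibres were at -0.76, -0.92, -0.40 and -0.53 at day 7 and at 1.41, 1.82, 1.64 and 1.66 at day 14. MCU vector fibres followed the wild type fibres of their slide, at -0.61, -1.07 and -0.45 at day 7 and at 1.48, 1.505, 1.78 and 1.80 at day 14. MCU vector minus wild type was -0.053 at day 7 and 0.012 at day 14, and wild type differed by 2.28 between the days.

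Between the 19 fibres at the low level, of which the highest was at -0.0014, and the 11 fibres at the high level, of which the lowest was at 1.41, no fibre had an intermediate value. The order of group means ran from silenced day 7 (2.46 ± 0.24, SD, n = 3) through MCU vector day 14 (1.64 ± 0.17, SD, n = 4) and wild type day 14 (1.63 ± 0.17, SD, n = 4) to silenced day 14 (-0.49 ± 0.32, SD, n = 4), and the other 4 group means lay between -0.71 and -0.65. The 5 groups at the low level overlapped one another, as did both groups of day 14 that lay at 1.64 and 1.63. The genes whose levels over the 30 arrays were most like those of Tmem14c, by Pearson correlation among 15032 named genes, were Rpl10a-ps2 (r = 0.831), Adh6b (r = 0.83) and Slfn10-ps (r = 0.821). The fibres of a group share a slide, and within groups these correlations were 0.262, 0.595 and 0.304. Rpl10a-ps2 showed a smaller range, with group means from 1.48 (MCU vector, day 7) to 2.15 (silenced, day 7).

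**Figure D1:**
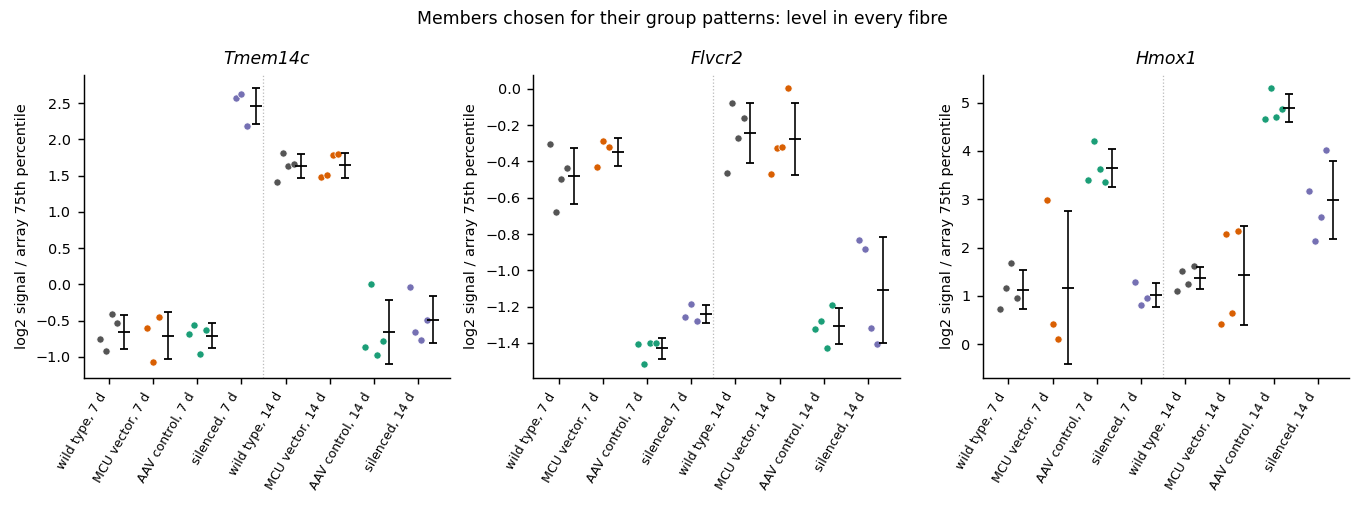
Level (log2 signal over the array's 75th percentile) of Tmem14c, Flvcr2 and Hmox1 in every fibre by group and day (7 d, 14 d); points are fibres and bars are the mean ± SD of 3 or 4 fibres. The 11 fibres with high Tmem14c are those of silenced day 7, wild type day 14 and MCU vector day 14; Flvcr2 is lower in AAV control and silenced fibres, and Hmox1 is highest in AAV control fibres.

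Flvcr2, the second member of the FLVCR transporter family here, lay higher on 1 slide pair than on the other. Its group SDs were 0.05 to 0.20, except in silenced fibres of day 14 (0.29). The wild type fibres were at -0.31, -0.68, -0.50 and -0.44 at day 7 and at -0.46, -0.081, -0.27 and -0.16 at day 14. The MCU vector fibres were at -0.43, -0.29 and -0.32 at day 7 and at -0.47, -0.33, -0.32 and 0.0025 at day 14. All 15 of these fibres lay above all 15 fibres of the other slides. Flvcr2 was chosen for its group pattern, and the share of all genes that separate like this is not given here. In AAV control against wild type fibres 17.7% of all genes passed at day 7 and 16% at day 14. The AAV control fibres were at -1.40, -1.52, -1.40 and -1.40 at day 7 and at -1.32, -1.28, -1.43 and -1.19 at day 14, and the silenced fibres at -1.26, -1.18 and -1.28 at day 7 and at -0.83, -0.88, -1.32 and -1.41 at day 14. The nearest fibres across the divide were a wild type fibre at -0.68 and a silenced fibre at -0.83. The widest gap, of 0.30, was not at this divide but lay between silenced fibres at -0.88 and -1.18. AAV control minus wild type was -0.95 at day 7 and -1.06 at day 14, a comparison across slides. Within slides the differences were small: 0.13 and -0.034 for the MCU vector and 0.19 and 0.20 for silencing, at days 7 and 14. With a model-based background correction (normexp) the difference between AAV control and wild type was -0.45 at day 7 and -0.62 at day 14. The genes most like Flvcr2 were Pou3f2 (r = 0.919), Khdc1c (r = 0.912) and Lypd6b (r = 0.905), over 30 arrays that share slides, and within groups their correlations with it were 0.219 to 0.247.

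Hmox1, the inducible haem oxygenase, had the widest range of the set. Its levels in AAV control fibres were 3.40, 4.198, 3.62 and 3.36 at day 7 and 4.66, 5.29, 4.70 and 4.86 at day 14. The wild type fibres were at 0.73, 1.17, 1.68 and 0.95 at day 7 and at 1.10, 1.51, 1.25 and 1.62 at day 14. Every AAV control fibre thus lay above every wild type fibre, on different slides. The means differed by 2.51 (5.70-fold) at day 7 and 3.51 (11.4-fold) at day 14. Hmox1 too was chosen for its group pattern, and the share of all genes that separate like this is not given here. The silenced fibres were at 1.28, 0.81 and 0.97 at day 7, within the wild type range, and at 3.16, 2.14, 2.62 and 4.02 at day 14, between wild type and AAV control fibres. Silenced minus AAV control, on shared slides, was -2.63 (6.18-fold lower) at day 7 and -1.89 (3.71-fold lower) at day 14, and no silenced fibre reached the AAV control fibres of its day.

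MCU vector fibres differed among themselves in Hmox1. At day 7 fibre 1 was at 2.99 and the other 2 at 0.41 and 0.11, and at day 14 the fibres were at 0.43, 2.27, 0.65 and 2.35. The mean difference from wild type was 0.0395 at day 7 and 0.057 at day 14, and without MCU vector fibre 1 the day 7 difference was -0.87. The second Hmox1 probe gave the same separation of AAV control from wild type fibres with smaller differences, 1.60 at day 7 and 2.27 at day 14, and silenced minus AAV control of -1.44 and -1.66. Its levels in the MCU vector fibres were 2.04, 0.84 and 0.70 at day 7, with fibre 1 again apart, and 1.21, 1.65, 1.44 and 1.43 at day 14, without the spread of the first probe. The order of group means by the brighter probe was AAV control day 14, AAV control day 7, silenced day 14, and then 5 groups with means between 1.02 and 1.43 that overlapped one another.

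The genes whose levels were most like those of Hmox1 over the 30 arrays were Osgin1 (r = 0.928), an oxidative stress induced growth inhibitor, Sphk1 (r = 0.917), which makes sphingosine 1-phosphate, and the transcription factor Ikzf4 (r = 0.9). Unlike the genes most like Flvcr2, these also varied with Hmox1 within groups (r = 0.868, 0.802 and 0.596). Osgin1 was at 0.30 to 4.97 in the MCU vector fibres of day 7 and at 5.77 to 6.70 in the AAV control fibres of day 14. Macrophages express Hmox1 as well; their markers summed, without Itgam, to 4.81 to 5.07 in AAV control fibres and to 4.67 to 4.93 in wild type fibres, the ranges overlapping. Of 11 measured macrophage and myeloid markers, Cd68 and C1qb were higher and Itgam lower in AAV control than in wild type fibres at day 7, and C1qb was higher at day 14. In silenced against AAV control fibres at day 7, Cd68 and Adgre1 fell and Itgam rose. Against wild type, Cd68 (at day 7 alone) and C1qb (at both days) thus moved in the direction of Hmox1, and Itgam the other way at day 7. The median difference of the 11 markers from wild type was 0.0459 at day 7 and -0.0022 at day 14. In silenced against AAV control fibres at day 14 none of the 11 passed. Over both days Cd68 and C1qb fell and Aif1 rose. The part of these markers in the Hmox1 levels was not tested.

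Ftl1, the light chain of ferritin, fell in silenced fibres at day 7 and was higher in AAV control than in wild type fibres. The AAV control fibres were at 4.87, 5.60, 5.54 and 4.89 at day 7 and the silenced fibres at 3.83, 3.91 and 3.13. The difference was -1.60 ± 0.32 (SE; 3.04-fold lower; adjusted p = 0.00178). At day 14 the AAV control fibres were at 5.03, 5.43, 5.14 and 5.22 and the silenced fibres at 4.25, 4.24, 4.44 and 5.29. The last of these reached the controls, and the difference of -0.65 ± 0.29 (SE) did not pass (adjusted p = 0.235). Over both days the difference was -1.12 ± 0.22 (SE; adjusted p = 0.00132), and the change of the effect between days was 0.96 ± 0.43 (SE; adjusted p = 0.226).

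Against wild type fibres, which were at 4.31, 4.28, 3.79 and 4.07 at day 7 and at 3.82, 4.54, 3.97 and 4.21 at day 14, the AAV control fibres were higher in Ftl1 by 1.11 ± 0.29 (SE) at day 7 (adjusted p = 0.00971) and by 1.07 ± 0.29 (SE) at day 14 (adjusted p = 0.0147), on different slides. Set against wild type instead of AAV control, across slides, silenced fibres differed in Ftl1 by -0.49 at day 7 (adjusted p = 0.33). At day 14 this difference was 0.42, of the other sign, and did not pass. The MCU vector fibres were at 4.61, 3.01 and 3.502 at day 7 and at 3.85, 4.63, 4.46 and 4.89 at day 14. They differed from wild type by -0.40 (95% interval -1.06 to 0.25) and 0.32 (-0.28 to 0.92), and from AAV control fibres by -1.52 at day 7 (adjusted p = 0.00225), across slides. These comparisons share their control fibres.

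Over the 30 fibres Ftl1 and Hmox1 varied together, with r = 0.853 (Spearman's rho 0.83) and r = 0.732 within groups. The fibres of a group share a slide, and each value pair comes from the same array. MCU vector fibre 1 of day 7, the highest of its group in Hmox1, was also its highest in Ftl1, and silenced fibre 4 of day 14 was the highest of its group in both. The heavy chain Fth1 did not pass in any comparison. Its levels ran from 5.32 to 6.41 over all fibres, its group means from 5.58 (silenced, day 14) to 6.17 (silenced, day 7), and silenced minus AAV control was 0.11 (95% interval -0.26 to 0.49) at day 7 and -0.29 (-0.64 to 0.062) at day 14. Its correlation with Hmox1 was -0.025.

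**Figure D2:**
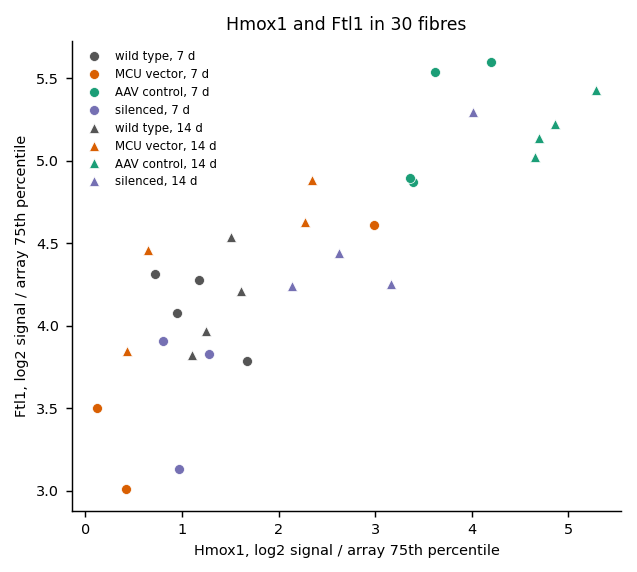
Ftl1 against Hmox1 (both log2 signal over the array's 75th percentile) in the 30 fibres; circles are day 7, triangles day 14, colours the groups. AAV control fibres lie at the upper right, and the points follow a rising line with r = 0.853.

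Flvcr1, the haem exporter, rose in silenced fibres at day 14, where the AAV control fibres were dimmest. These 4 fibres were at -3.62, -3.44, -2.30 and -3.41, and only fibre 3 was well above background. The silenced fibres of day 14 were at -0.77, -1.45, -0.72 and -2.65, all detected, and the lowest of them overlapped the controls. The fitted difference was 1.79 ± 0.41 (SE; adjusted p = 0.0148). Since 3 of the 4 AAV control values were not above background, its size is uncertain: with dim spots set to the lowest detected signal of their array it was 1.56 (adjusted p = 0.0265). It did not pass with the model-based background correction (0.54, adjusted p = 0.0568), when only these groups were fitted (adjusted p = 0.152), without AAV control fibre 1 (adjusted p = 0.0513) or without silenced fibre 3 (adjusted p = 0.0621).

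At day 7 the silenced fibres were at -1.23, -1.81 and -1.04 in Flvcr1 and the AAV control fibres at -1.92, -2.38, -2.58 and -1.24, a difference of 0.67 ± 0.45 (SE; adjusted p = 0.329). Over both days the difference was 1.23 ± 0.30 (SE; adjusted p = 0.00872), and the effects of the 2 days differed by 1.12 (95% interval -0.13 to 2.37). The wild type fibres were at -0.35, -1.22, -1.39 and -0.49 at day 7 and at -1.51, -1.45, -2.06 and -2.88 at day 14. Set against these, across slides, silenced fibres differed by -0.50 at day 7 without passing, and the day 14 call was lost. AAV control minus wild type was -1.17 ± 0.41 (SE) at day 7, just short of the threshold (adjusted p = 0.0513), and -1.22 ± 0.41 (SE) at day 14 (adjusted p = 0.0448), against the same dim fibres; with dim spots at the lowest detected signal the latter was -0.99 (adjusted p = 0.0906). The call at day 14 was lost in 15 of 20 alternatives, among them with the model-based background correction (-0.26, adjusted p = 0.282), when only these groups were fitted (adjusted p = 0.0744) and without any of wild type fibres 1, 2 and 3 or AAV control fibres 1, 2 and 4 (adjusted p 0.0793 to 0.121). The MCU vector fibres were at -1.53, -1.04 and -1.26 at day 7 and at -2.53, -3.11, -1.63 and -2.47 at day 14, 3 of these 4 detected, and differed from wild type by -0.41 (95% interval -1.33 to 0.51) and -0.46 (-1.31 to 0.39). Between days, wild type fibres differed by -1.11 (adjusted p = 0.167) and AAV control fibres by -1.16 (adjusted p = 0.114), so that Flvcr1 was dimmer at day 14 in both without passing.

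Alas1, the entry enzyme of haem synthesis, was measured by a pair of probes that gave different results. By the brighter probe the silenced fibres were at 3.64, 3.08 and 3.63 at day 7 and the AAV control fibres at 2.76, 2.85, 2.59 and 3.32, which overlapped, with a difference of 0.57 ± 0.26 (SE; adjusted p = 0.144). Over both days the difference was 0.48 ± 0.18 (SE; adjusted p = 0.071). By the other probe the silenced fibres were at 0.92, 0.81 and 0.92 and the AAV control fibres at 0.0575, 0.27, -0.50 and 0.15 at day 7. That difference, 0.89 ± 0.18 (SE), passed when every probe was fitted on its own (adjusted p = 0.00199 over 33163 probes), as did that over both days (0.60 ± 0.12, SE; adjusted p = 0.00192). The probes disagreed on AAV control against wild type at day 7, with 0.019 ± 0.24 (SE; adjusted p = 0.969) by the brighter probe and -1.06 ± 0.16 (SE; adjusted p = 0.000112) by the other. They also disagreed in sign on wild type day 14 minus day 7, with 0.36 ± 0.24 (SE; adjusted p = 0.511) and -0.68 ± 0.16 (SE; adjusted p = 0.025).

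With the MCU vector, Alas1 by the brighter probe was at 2.17, 2.50 and 3.13 at day 7 and at 2.49, 2.54, 2.65 and 2.79 at day 14, against wild type levels of 3.28, 2.44, 2.42 and 3.297 and of 3.35, 2.96, 3.52 and 3.07. At day 14 the MCU vector fibres all lay below the wild type fibres, with a difference of -0.61 ± 0.24 (SE; unadjusted p = 0.0186, adjusted p = 0.321). The groups of 8.27% of all genes did not overlap in this comparison. The other probe gave 0.065 ± 0.16 (SE) there, and -0.59 ± 0.18 (SE; adjusted p = 0.31) at day 7.

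**Figure D3:**
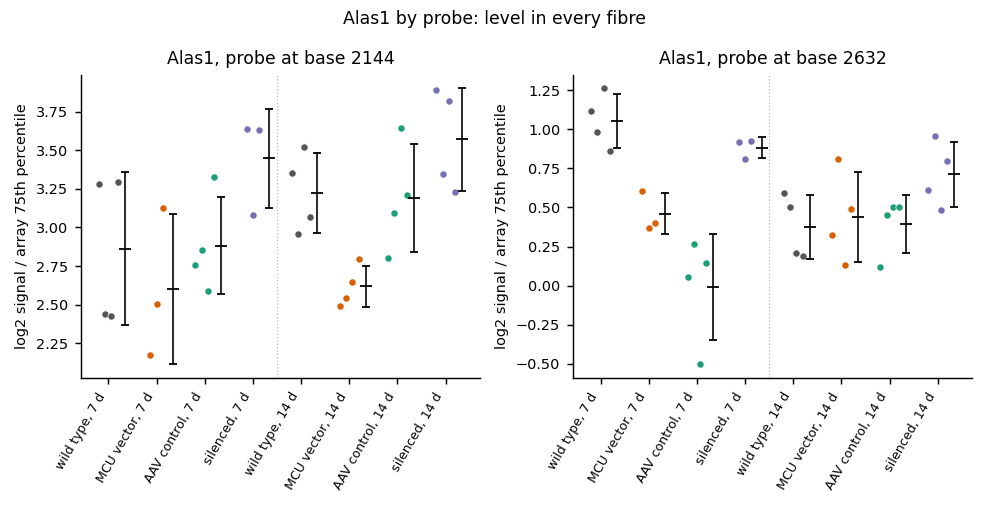
Level (log2 signal over the array's 75th percentile) of Alas1 in every fibre by group and day, by the brighter probe at base 2144 of the transcript (left) and the other probe at base 2632 (right); bars are the mean ± SD of 3 or 4 fibres. Silenced fibres of day 7 lie above AAV control fibres by the right-hand probe, and overlap them by the left-hand probe.

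Fech, the last enzyme of haem synthesis, was the steadiest of the set, with levels from 3.88 to 4.46 over all fibres and group SDs from 0.028 to 0.15. Silenced minus AAV control was -0.074 (95% interval -0.30 to 0.15) at day 7 and 0.13 (-0.077 to 0.34) at day 14, and MCU vector minus wild type was 0.054 (-0.17 to 0.28) and -0.016 (-0.22 to 0.19). AAV control minus wild type at day 7 was 0.27 ± 0.10 (SE; adjusted p = 0.0621), where 17.7% of all genes passed. The constitutive oxygenase Hmox2 ran from 3.39 to 4.07 and likewise passed in no comparison. Its silenced minus AAV control differences were 0.094 (95% interval -0.23 to 0.42) and 0.11 (-0.19 to 0.41), beside -2.63 and -1.89 for its inducible relative Hmox1.

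Tfrc, the transferrin receptor, was measured by 3 probes, of which the brightest, with 10 spots on each array, stands for the gene. The wild type fibres were at 0.99, 1.31, 0.78 and 1.76 at day 7 and at 0.97, 0.83, 0.18 and 0.69 at day 14. The MCU vector fibres were at 1.03, 1.37 and 1.29 at day 7 and at 1.22, 1.55, 1.25 and 1.17 at day 14, above the wild type fibres of that day. The groups of 8.27% of all genes did not overlap in this comparison. MCU vector minus wild type at day 14 was 0.63 ± 0.26 (SE, unadjusted p = 0.0246, adjusted p = 0.351). The other probes gave 0.12 and 0.34 there, and neither passed. AAV control minus wild type at day 14 was 0.69 ± 0.26 (SE; adjusted p = 0.0757) by the brightest probe, and 0.96 (adjusted p = 0.0203) and 0.83 (adjusted p = 0.0341) by the other probes in the fit of every probe. Silenced minus AAV control was 0.20 (95% interval -0.38 to 0.79) at day 7 and -0.066 (-0.61 to 0.48) at day 14.

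**Figure D4:**
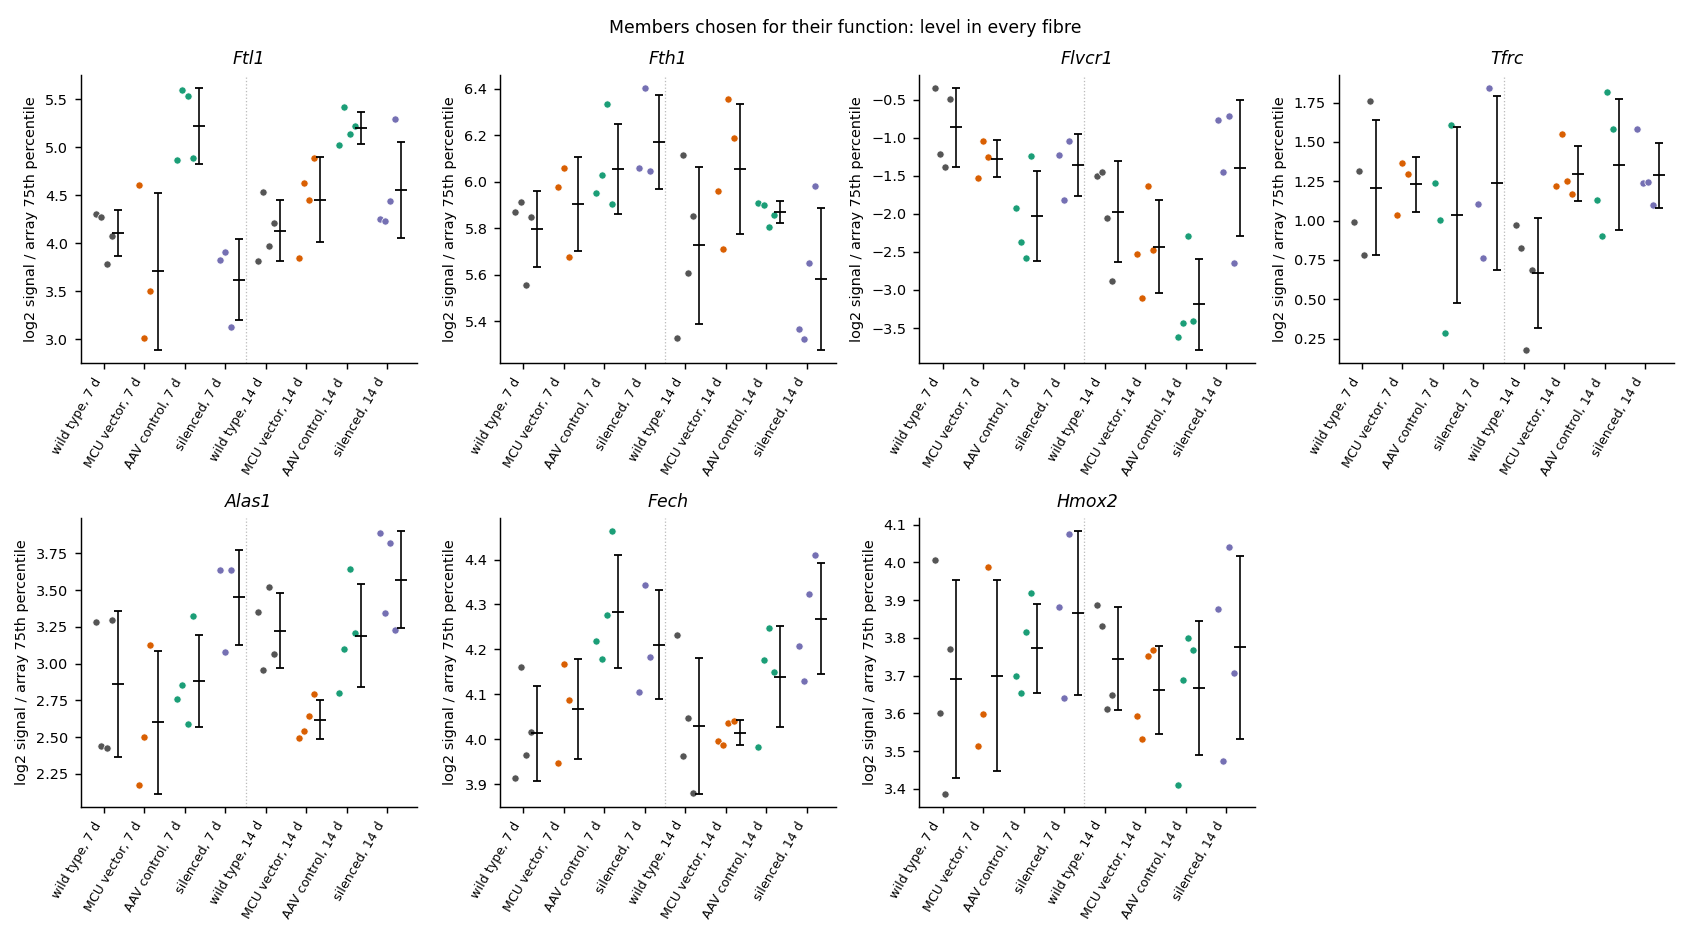
Level (log2 signal over the array's 75th percentile; scales differ between panels) of the 7 members chosen for their function in every fibre by group and day; bars are the mean ± SD of 3 or 4 fibres. Ftl1 is highest in AAV control fibres and Flvcr1 lowest in those of day 14, while Fech and Hmox2 each stay within 0.69 log2 units.

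Counted over the 7 tested members, none passed with the MCU vector at day 7, at day 14 or over both days, where 0.574%, 0.42% and 1.11% of all genes passed by limma. At an unadjusted p below 0.05 there were 0, 2 (Alas1 and Tfrc) and 1 (Alas1) members, beside 5.34%, 11.4% and 13.1% of all genes. In silenced fibres at day 7, 1 of 7 fell (Ftl1), where 13.8% of all genes passed and 5.03% fell. At day 14, 1 of 7 rose (Flvcr1), where 3.52% passed and 1.64% rose. Over both days 1 rose and 1 fell, where 14.5% passed, 8.56% rising and 5.9% falling. The median difference of the 7 members was 0.11 at day 7 and 0.11 at day 14, beside 0.089 and -0.0015 over all genes. In AAV control against wild type fibres 1 of 7 was higher at day 7 (Ftl1; 17.7% of all genes passed and 5.98% were higher). At day 14, 1 was higher (Ftl1) and 1 lower (Flvcr1), where 16% passed, 5.55% higher and 10.5% lower. None passed between days in wild type (2.35%) or AAV control fibres (3.22%), nor for a change between days in the effect of the MCU vector (0.197%) or of silencing (4.13%). At an unadjusted p below 0.05 these 4 comparisons had 1, 1, 0 and 1 members, beside 15.6%, 19.7%, 3.47% and 19% of all genes.

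**Figure D5:**
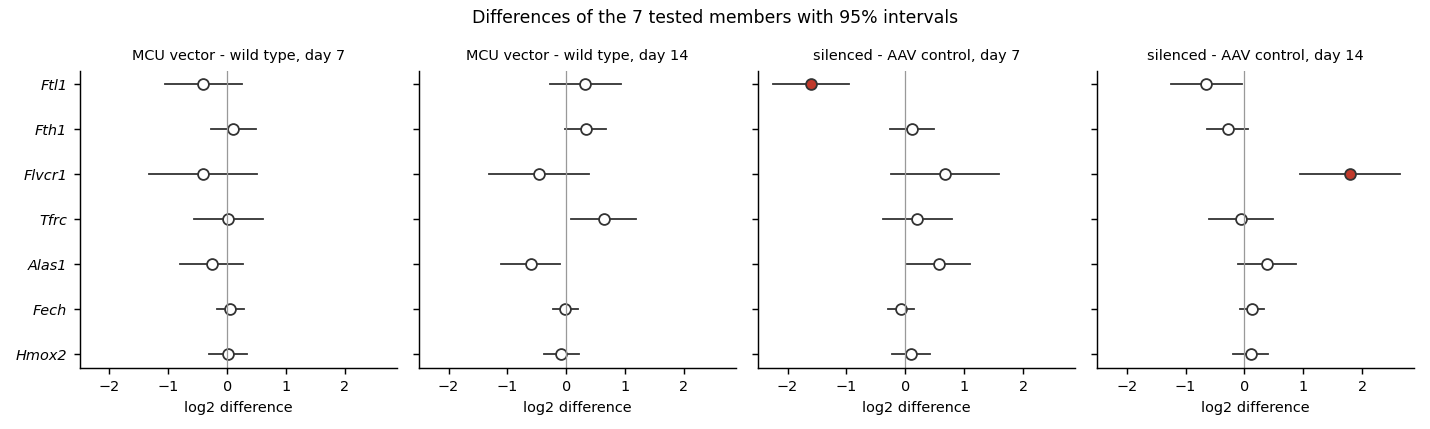
Log2 difference of treated minus control fibres (points) with 95% intervals (lines) for the 7 tested members in the 4 comparisons within slides; filled points passed at an adjusted p below 0.05. Only Ftl1 at day 7 and Flvcr1 at day 14, both with silencing, are filled, at -1.60 and 1.79.

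Around these members, 96 other genes of haem and iron handling were listed, of which 82 were measured. The lists were chosen with earlier results of these data known, so counts over them are a description. With the MCU vector, 0 of 82 passed at either day (3 and 10 at an unadjusted p below 0.05) and 1 over both days: Iscu, the scaffold on which iron-sulphur clusters are built, fell by 0.45 (SE 0.11; adjusted p = 0.0316), a call lost with median scaling. In silenced fibres 7 rose and 7 fell at day 7 (17.1%), 1 rose and 4 fell at day 14 (6.1%), and 2 rose and 8 fell over both days (12.2%), beside 13.8%, 3.52% and 14.5% of all genes. Over both days 8.56% of all genes rose and 5.9% fell. The split moved with the scaling: under quantile, median and detected-probe scaling, the deposited processed values and the model-based background correction, 2 to 10 rose and 7 to 9 fell at day 7.

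The list of haem and Nrf2-Bach1 responsive genes, which holds BACH1, the repressor that haem releases from DNA, and the activator NRF2 (Nfe2l2) with genes that both control, had 11 measured genes. Of these 5 fell and none rose in silenced fibres at day 7, where 5.03% of all genes fell. They were Bach1, Nfe2l2 (-1.14 ± 0.30, SE, adjusted p = 0.0123), the thioredoxin reductase Txnrd1 (-1.03 ± 0.21, SE, adjusted p = 0.00202), Srxn1 and Osgin1 (-3.91). The Osgin1 means at day 7 were 1.90 in wild type, 6.16 in AAV control and 2.25 in silenced fibres. The median of the 11 was -1.01, beside 0.089 over all genes, and 5 or 6 fell under each scaling. At day 14 only Txnrd1 passed (-0.71 ± 0.19, SE; adjusted p = 0.0362), and under some scalings none did. In AAV control against wild type fibres 6 of 11 were higher at day 7 and 4 at day 14, and none lower. Of all genes 5.98% and 5.55% were higher there. Osgin1 differed by 4.27 and 5.13. These comparisons share the AAV control fibres. The list was chosen with earlier results of these data known, and it holds Osgin1, the gene most like Hmox1. Its counts beside the shares of all genes are a description and no test. The Osgin1 differences are a description too, since Hmox1 was chosen for its group pattern.

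Of 6 further haem synthesis enzymes, Alad, which acts directly after ALAS1, rose in silenced fibres at day 7 by 0.78 ± 0.23 (SE; adjusted p = 0.0246), while 0 to 3 of the 6 enzymes rose depending on the scaling. Ppox, the last enzyme before FECH, rose at day 14 (0.64 ± 0.13, SE; adjusted p = 0.00373). It was lower in AAV control than in wild type fibres that day by a like amount (-0.66 ± 0.13, SE; adjusted p = 0.00108). Of 11 further haem and porphyrin transporters none rose; Tspo, of the outer mitochondrial membrane, fell at day 7 (-1.55 ± 0.48, SE; adjusted p = 0.0343) and Slc46a1, which carries haem and folate, fell at day 14 (-0.71 ± 0.18, SE; adjusted p = 0.0238). Against wild type, across slides, the same AAV control fibres were higher in Tspo at day 7 (1.45, adjusted p = 0.0257). They were also higher in Slc46a1 at day 14 (0.55, adjusted p = 0.0357). No further gene of haem breakdown (Blvra, Blvrb or Por) passed with either vector.

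Among 12 further iron transport genes, Slc11a2, the divalent metal transporter DMT1, fell in silenced fibres at both days, with differences of -0.70 ± 0.20 (SE; adjusted p = 0.0242) and -0.74 ± 0.19 (SE; adjusted p = 0.0271). Slc25a28 (mitoferrin 2, which imports iron into mitochondria) and the ferroxidase Heph rose at day 7, the first by 0.47 ± 0.12 (SE; adjusted p = 0.0104) and Heph by 0.39 ± 0.11 (SE; adjusted p = 0.023). Their effects differed between days, with changes of effect from day 7 to day 14 of -0.61 (adjusted p = 0.0325) and -0.61 (adjusted p = 0.023). With median scaling neither rise nor change of effect was called, and with the model-based background correction 1 of each was. Iscu behaved in the same way, with 0.64 ± 0.15 (SE; adjusted p = 0.00753) at day 7 and a change of effect of -0.80 (adjusted p = 0.0304), the latter lost with quantile normalization and with the deposited processed values. Of 8 further genes of iron storage and its control, Herc2 rose at day 7 (0.64 ± 0.14, SE; adjusted p = 0.00478), and neither of the iron regulatory proteins, Aco1 and Ireb2, passed with silencing. Of 14 haem proteins of muscle and their assembly factors, Cyb5a fell at day 14 (-0.64 ± 0.17, SE; adjusted p = 0.0399) and none rose. That call was lost with scaling to detected probes. Against wild type, across slides, the same AAV control fibres were lower in Slc25a28 and Herc2 at day 7 and higher in Cyb5a at day 14. Slc11a2, Heph and Iscu passed at neither day in that comparison.

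The 250 bases before the transcript start are shown for Flvcr1 and Ftl1, the tested members that passed with silencing, from RefSeq on build GRCm38.p6; 8 of the 10 members have such an entry, 13 starts in all. Capitals mark matches, on either strand, to the core of the antioxidant response element, TGANNNNGC; the E-box CACGTG and the NRF1 palindrome (both strands) were searched as well and match in neither window.
Flvcr1 (chr1:191026191-191026440, minus strand): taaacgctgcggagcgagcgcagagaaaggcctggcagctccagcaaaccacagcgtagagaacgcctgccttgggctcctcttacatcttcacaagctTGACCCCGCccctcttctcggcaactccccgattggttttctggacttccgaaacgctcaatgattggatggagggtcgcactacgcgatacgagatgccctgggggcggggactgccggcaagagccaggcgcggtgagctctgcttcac
Ftl1 (chr7:45459887-45460136, minus strand): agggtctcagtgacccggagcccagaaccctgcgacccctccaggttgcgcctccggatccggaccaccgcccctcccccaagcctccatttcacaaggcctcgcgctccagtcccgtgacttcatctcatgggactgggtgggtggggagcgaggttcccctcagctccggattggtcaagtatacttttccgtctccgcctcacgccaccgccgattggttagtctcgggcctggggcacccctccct
Of 32851 promoter windows of this length, 35.2% hold the first motif, 6.02% the E-box and 3.74% the palindrome. Flvcr1 and Tmem14c have 1 match each to TGANNNNGC, Flvcr2 has 1 to CACGTG and the second listed start of Alas1 has 2 to the palindrome, while the windows of Ftl1, Fth1, Hmox2 and Tfrc hold none of the 3.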

How the data were processed

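Single-fibre RNA was reverse transcribed, amplified for 18 cycles and hybridised to 30 one-colour arrays, per the labels' protocols. Spot intensity in the deposited scanner files was extracted with Agilent Feature Extraction 10.7.3.1, per the file headers; the processed signal is background-subtracted by that software. A deposited value table holds log2 values of the same arrays, with a median of 22.5 to 23.2 per array; each column correlated best with its own array (r of at least 0.998), its direction follows the signal, and its centring and scaling stay unknown. The main value is log2 of the processed signal minus that of the array's 75th percentile of non-control spots; flagged outlier spots were left out and spots of a probe averaged. A probe was kept if detected above background on 3 or more arrays of some group, which left 33163 of 55681 probes. Each gene is represented by its brightest kept probe, giving 23341 genes. limma 3.58.1 in R 4.3.3 fitted 8 group means with 22 residual degrees of freedom, and p-values were adjusted over all genes by Benjamini-Hochberg at a threshold of 0.05. The procedure was tested on simulated data. Figures used matplotlib 3.10.9.

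The members and lists were chosen with earlier results of these data known. All members are named; of other genes, a selection of those of the lists that passed and the 3 most correlated with each described member. Replicate numbers did not pair the fibres. Alternatives covered background correction, scaling, filters, probe choice, array weights, other controls and leaving out fibres. Arrays of a group correlated at 0.951 to 0.984 and no arrays were identical. Some results are not reported here.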

Additional observations from a re-analysis of the deposited data

Results flagged for a closer look

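Among the 60 combinations of a member and a group of 4 fibres, 2 held a fibre farther from the others than Dixon's 95% limit for 4 values. Chance gives about 1 in 20. For Flvcr1, AAV control fibre 3 of day 14, at a level of -2.2982, lay apart above the others, with a gap of 0.841 of the range, and was the only fibre of its group in which Flvcr1 was well above background. For Flvcr2, AAV control fibre 2 of day 7, at -1.5152, lay below the others by 0.938 of the range.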

How the results depend on the processing

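Of 1890 results for the tested members under alternatives, 1846 kept their direction where called and their side of the threshold, 23 lost and 21 gained a call, and 0 reversed; 123 differences that passed in neither setting changed sign. With the MCU vector at day 7, members called went from 0 to 1 with the AAV control in place of wild type. With silencing, 1 became 0 at day 7 with the replicate block and with wild type as control, and at day 14 with normexp, only the groups compared, the replicate block or wild type as control; leaving out a fibre gave 0 to 1 at day 14. Between days in wild type, 0 became 1 with array weights. For AAV control against wild type at day 7, 1 became 2 with normexp, median scaling, scaling to detected probes, dim spots at the floor, the stricter filter, array weights and the replicate block, and was 1 to 2 leaving out a fibre. At day 14, 2 became 1 with quantile normalization, the deposited log2 values, the floor, no filter, only the groups compared and the replicate block, and was 1 to 2 leaving out a fibre. Same-numbered fibres correlated at -0.175 to 0.186, 4 of 14 above 0.1, so the numbers were not taken as pairs; with the replicate block Ftl1 differed by -1.71 at day 7 (adjusted p = 0.0966).

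Genes called over all alternatives ranged, with the MCU vector, from 29 to 3244 (main 134) at day 7, 32 to 4236 (98) at day 14, 131 to 1292 (260) over both days and 19 to 96 (46) for the change between days. With silencing they ranged from 144 to 4214 (3220), 0 to 2363 (821), 806 to 4529 (3374) and 72 to 1300 (965). They ranged from 77 to 1374 (548) between days in wild type, 13 to 1042 (752) in AAV control, and 2122 to 5508 (4126) and 805 to 4936 (3743) for AAV control against wild type. The lowest count came each time from the replicate block. Median scaling moved the median of all genes by -0.127 with silencing and by 0.1745 and 0.1626 in AAV control against wild type; the share of calls that were higher went from 63.5% to 39.6% with silencing at day 7, 46.5% to 22.2% at day 14, 59.2% to 26.1% over both days, and from 33.8% to 62.7% and 34.6% to 63.2% for AAV control against wild type. Signal over background limits Flvcr1, detected on 26 of 30 arrays.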
